A study of Mus musculus with 10 samples.

Results

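The comparison described here sets FoxA2-Cre hybrids against FoxA2-Cre unfused cells, 4 of the 10 arrays of the series. Mouse lineage-negative haematopoietic stem and progenitor cells carrying a Cre-dependent YFP reporter (R26Y) were grafted on one side of the midbrain, over the substantia nigra pars compacta, of FoxA2-Cre mice. The recipients had been given the dopaminergic neurotoxin MPTP, and the graft followed on day 3 after its last injection. After 1 week the tissue was dissociated and sorted. Hybrids were the RFP+YFP+ cells, taken as grafted cells fused with a Cre-expressing recipient cell, and unfused cells were the RFP+ cells. Each replicate pooled 2 mice, and each group had 2 replicates. All 4 pools shared the lesion, the graft, the recipient line and the interval to the sort, and no ungrafted or unlesioned sample entered the comparison. The model has limits that the design sets. YFP depends on Cre activity in the partner, whether present or past, so the FoxA2 lineage of the partner is read from the reporter, and a sort on 2 colours can also collect doublets or engulfed material. The other 6 arrays hold R26Y hybrids, GFAP-Cre hybrids and RFP+ cells pooled over those recipient lines, with 2 replicates each.

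The samples were chosen by their labels, and the features described are the probes well above background on both arrays of at least 1 FoxA2-Cre group, 17777 of the 55681 on the array. These are called kept probes. Of these, 9266 were well above background on all 4 arrays, 2739 on both unfused and neither hybrid array, 76 on both hybrid and neither unfused array, and 5696 were also measured on 1 array of the other group. Levels are log2 signals with the 75th percentile of each array set to 0. Differences are hybrid minus unfused on that scale.

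Foxa2 encodes a forkhead transcription factor that patterns the floor plate of the ventral midbrain and is kept in its dopaminergic neurons, whose loss MPTP provokes. Cells of the blood lineage can fuse with brain cells after injury and give a product that carries both genomes, and such hybrids are studied as carriers of factors to the damaged tissue. Ribosomal proteins, profilin and antizyme, which recur below, belong to the most heavily transcribed genes of growing cells.

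The 4 arrays stood apart from the rest in brightness. Between 19.8% and 34.6% of spots were well above background on the hybrid arrays, 34.8% to 49.2% on the unfused arrays and 64.3% to 86.7% on the others. The 100 brightest probes took 29.96% to 41.6% of the signal, against 22.4% to 27.1% elsewhere. No spot was saturated. The scanner header of unfused replicate 2 carries the sample number that the labels give to an R26Y hybrid array, but its slide is that of the FoxA2-Cre samples, and the label was followed. Hybrid arrays lay in row 1 and unfused arrays in row 2 of a slide that held nothing else, so row and group cannot be told apart within it, and the replicate numbers coincide with its columns. Across kept probes, Spearman's rho was 0.66 between the hybrid replicates, 0.68 between the unfused replicates and 0.52 to 0.61 between the groups, with probes that are not independent of each other. Of 33182 probes well above background on all 6 other arrays, 4.02% differed by more than 4 log2 units between the hybrid replicates and 5.10% between the unfused replicates. The share was 4.48% to 6.06% for a hybrid array set against an unfused array. In the other recipients it was 0.00904% between the unfused replicates, 0.0663% between the GFAP-Cre hybrid replicates and 4.14% between the R26Y hybrid replicates. On the FoxA2-Cre slide, gaps of many log2 units thus occurred within groups nearly as often as between them. A gap that repeated in both pools was not sufficient for a call. Both hybrid arrays lay below both unfused arrays at 3491 kept probes and above them at 3578, while 92 were called lower and 11 higher. The calls also depend on the spread within the groups of the other recipients, which enters the fit.

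Several called probes shared sequence, and the letters are shown because they bear on how many separate transcripts the calls stand for. Probes are 60 bases long. The first set is the Rpl10 sequence, found in 5 called probes at 4 chromosomes, with the 20 bases common to all 5 in capitals. The first probe lies at chrX:71518408-71518465 (mm9, plus strand) and its overlapping neighbour, at chrX:71518414-71518473, prints the same 30 bases. The others lie at chr2:162631672-162631731 (plus strand), chr5:22437134-22437193 (minus strand) and chr8:109451608-109451667 (minus strand), each without a gene name.
Rpl10: atagtTCTCCTATACCCTACCAAATcgttc
Chromosome 2 probe: tcTCTCCTATACCCTACCAAATcgtgttca
Chromosome 5 probe: cTCTCCTATACCCTACCAAATcgtgttcaa
Chromosome 8 probe: agttcTCTCCTATACCCTACCAAATtgttc
The Oaz1 probes lie at chr10:80291975-80292034 (plus strand) and at chr17:17482135-17482194 (minus strand), the latter inside an interval that the array also lists as a lincRNA. They shared 54 bases, and the last 30 are printed with the shared ones in capitals.
Oaz1, chromosome 10: CAAATCCAATAAAGTGATCTCGTTcattgg
Oaz1, chromosome 17: CAAATCCAATAAAGTGATCTCGTTaaaaaa
The Itga6 probe at chr2:71690633-71690692 (plus strand) shared 21 bases, in capitals, with an unnamed probe at chr12:22311308-22311367 (minus strand).
Itga6: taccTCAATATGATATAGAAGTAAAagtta
Chromosome 12 probe: tactTCAATATGATATAGAAGTAAAgctaa
On the higher side, the vomeronasal receptor probes Vmn1r148 (chr7:21454870-21454929) and an unnamed one at chr7:23443970-23444029 printed the same letters. They share the 18 capitals with Vmn1r132 (chr7:21557101-21557160), which did not pass (9.11, adjusted p 0.0598). All 3 are on the plus strand.
Vmn1r148: agacacCTTCACTAATACCATTAAgtactt
Vmn1r132: agacatCTTCACTAATACCATTAAatactt
The last set is 3 probes of T cell receptor alpha variable segments on chromosome 14, printed whole, with stretches of at least 12 bases shared with another of the 3 in capitals. They lie at chr14:54255014-54255073, chr14:53692820-53692879 and chr14:54165093-54165152, on the plus strand.
Variable 13-2: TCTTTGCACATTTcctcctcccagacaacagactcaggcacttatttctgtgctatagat
Variable 13D-4: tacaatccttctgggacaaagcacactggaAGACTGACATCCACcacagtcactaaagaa
Variable 13-1: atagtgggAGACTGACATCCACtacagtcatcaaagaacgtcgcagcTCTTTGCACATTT

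Hybrids were lower than unfused cells at 92 of the 17777 kept probes (0.518%) and higher at 11 (0.0619%), in limma with Benjamini-Hochberg adjusted p under 0.05, 103 in all (0.579%). A further view without adjustment gave 1432 probes at p under 0.05. The 103 called probes fell into 84 groups without a common run of 20 bases. Of the 103, 45 (43.7%) had such a run in common with another gene's probe, and 11.8% of the kept probes did. The median difference was -6.70 among the lower and 8.98 among the higher probes, and -0.02 over all kept probes. Of the lower calls, 52 were not well above background on either hybrid array, and 7 of the 11 higher calls were not on either unfused array, so their fitted differences involve a level at or under the detection limit. The calls rest on a spread shared by all 10 arrays. With the 4 FoxA2-Cre arrays alone 0 probes passed in limma (lowest adjusted p 0.069, 1400 at an unadjusted p under 0.05). With slide column as a term, which on this slide coincides with the replicate number, 0 passed as well (lowest adjusted p 0.106, 1438 unadjusted). Without unfused replicate 2 there were 0 calls (1147 unadjusted), without unfused replicate 1 37, and without either hybrid replicate 179. All 103 had the same direction in each of these fits. That direction had little room to change, since the fits reuse the arrays on which the probes were called.

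**Figure D1:**
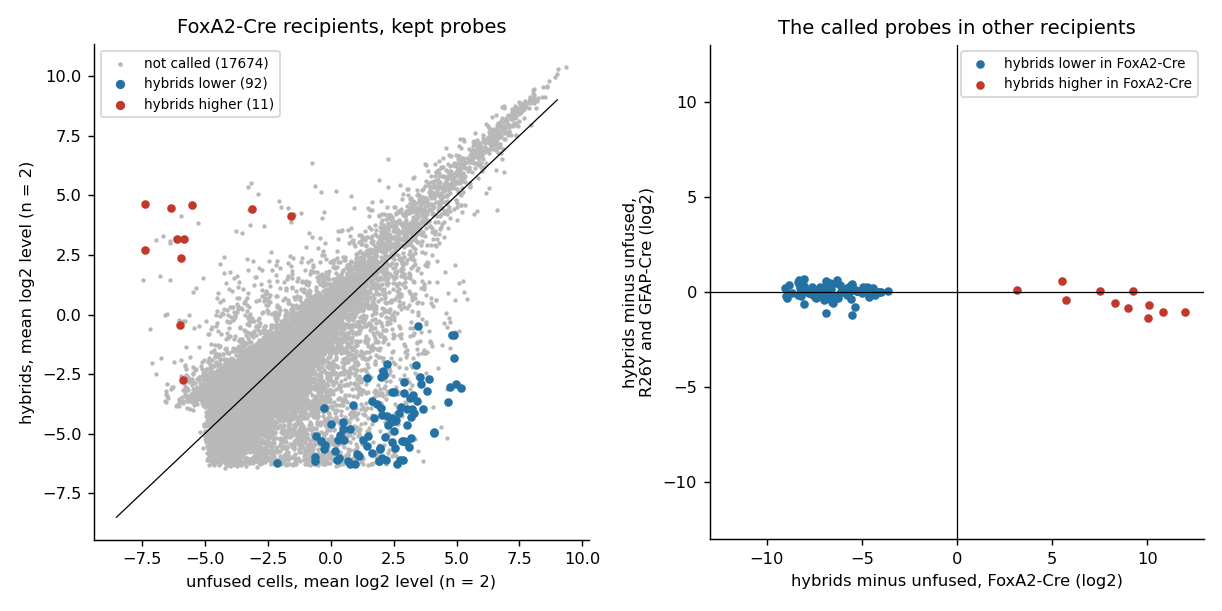
Left, mean log2 level of each kept probe in FoxA2-Cre unfused cells (x) and hybrids (y), 2 arrays each, with equality as a line and called probes in colour. Right, the 103 called probes, with the FoxA2-Cre difference (x, log2) against the mean hybrid difference in R26Y and GFAP-Cre recipients (y, log2), which stays between -1.37 and 0.67.

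Called probes with a gene symbol stood for 30 genes, 27 lower and 3 higher in hybrids. Another kept probe existed for 13 of them, and in 4 of those (Itga6, Rpl31, Spin1 and Zfp975) at least 1 such probe had the opposite sign. For 11 genes the array carries a single probe. Lower bounds of a fold, given as "at least", set the group that was well above background against the detection floor of the other, and the floor on each array is the higher of its lowest well-above-background signal and the probe's own.

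**Figure D2:**
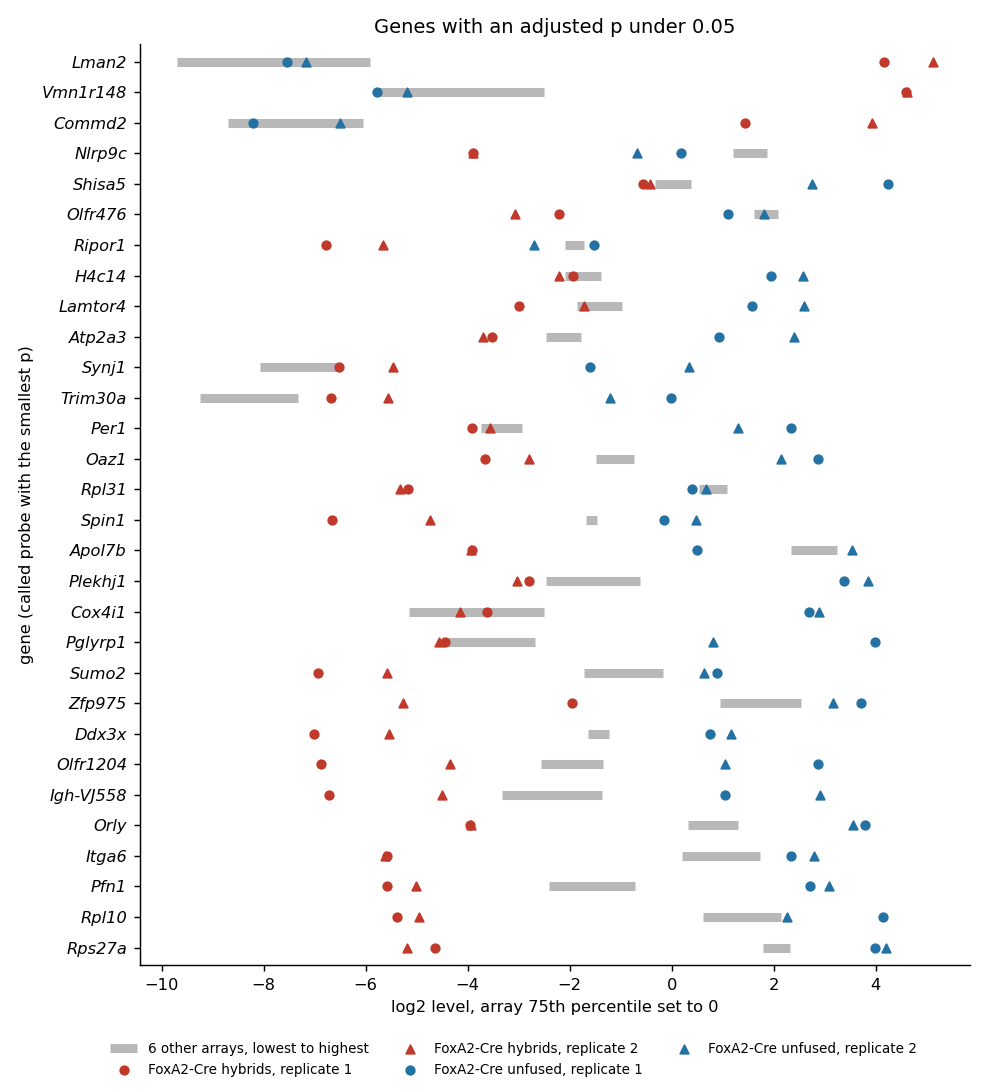
Log2 level (array 75th percentile at 0) of the 30 called genes on the 2 hybrid (red) and 2 unfused (blue) FoxA2-Cre arrays, with the range of the 6 other arrays in grey. In the 27 lower genes both red points lie left of both blue points, and in Lman2, Vmn1r148 and Commd2 they lie right of them.

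Ribosomal protein genes led the lower side. Rps27a, which encodes ubiquitin fused to a protein of the small ribosomal subunit, had levels of -4.63 and -5.20 in hybrids and 3.99 and 4.21 in unfused cells. Both hybrid pools were far below both unfused pools, and the 6 other arrays lay between 1.78 and 2.32. The difference was -9.01 ± 0.53 (SE, adjusted p 0.00319, limma). A second Rps27a probe gave -4.63 and -4.66 in hybrids, against 3.18 and 2.93 in unfused cells, and fell by 7.70 (adjusted p 0.00574), at least 139-fold. The third probe, at another position in the gene, differed by -1.12 ± 0.99 (SE, adjusted p 0.84) and did not pass.

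Rpl10, a large-subunit protein gene on the X chromosome, lay at -5.39 and -4.96 in hybrids and 4.13 and 2.26 in unfused cells. It was at least 178-fold lower, with a difference of -8.37 ± 0.99 (SE, adjusted p 0.0147), and its overlapping probe fell by 8.65 (adjusted p 0.0177). These are the probes whose letters recur on other chromosomes, so the signal cannot be assigned to a single locus. The third Rpl10 probe was well above background on all 4 arrays, at 0.59 and -1.23 in hybrids against 4.51 and 4.99 in unfused cells, a difference of -5.07 ± 0.87 (SE, adjusted p 0.0611). For Rpl31, also of the large subunit, hybrids lay at -5.17 and -5.33 and unfused cells at 0.39 and 0.67, a fall of at least 28.1-fold (adjusted p 0.00728). Its other kept probe was dim on all 4 arrays and differed by 1.14 (adjusted p 0.751).

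The cytosolic ribosomal protein list has 83 genes, each taken at its brightest probe over the 4 arrays. Of these, 60 were kept, 2 passed as lower (Rps27a and Rpl31) and 0 as higher, where 22 of 6749 kept genes (0.326%) passed as lower and 3 (0.0445%) as higher. Both hybrid arrays lay below both unfused arrays in 27 genes (32.5%) and above them in 9 (10.8%), and the groups overlapped in 47. Over all 19810 genes these shares were 8.39% and 30.3%. Over the 7872 kept probes with a gene symbol they were 19.5% and 21.5%. At an unadjusted p under 0.05, 12 were lower and 2 higher. The list's median difference was -1.76, against 0.54 over all genes and -0.0012 over the kept probes with a gene symbol. The median level was -3.97 and -3.43 on the hybrid arrays and 0.91 and -1.67 on the unfused arrays, and 53, 40, 77 and 62 of the genes were well above background on them in that order. Of all spots on these arrays, 34.6%, 19.8%, 49.2% and 34.8% were, so detection fell on the hybrid arrays as a whole.

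Ribosomal genes that did not pass lay on both sides. Rpl9 differed by -7.00 ± 1.18 (SE, adjusted p 0.0566), Rps28 by -6.52 (0.0969) and Rps23 by -6.19 (0.176), and none of the 3 passed. Rps23 was at -3.06 and -2.84 in hybrids and 3.03 and 3.45 in unfused cells, without overlap, and the 6 other arrays ran from -3.50 to -0.13. Rpl21 lay on the other side, at 3.16 and 0.61 in hybrids and -2.13 and -2.51 in unfused cells (4.21 ± 0.94, SE, adjusted p 0.147). Rpl22 was at 3.63 and 5.79 against 1.75 and 1.51 (3.08 ± 0.86, SE, adjusted p 0.289). Mitochondrial ribosomal protein genes, 77 in number, had a median of 0.63, with 10 lower and 21 higher without overlap and 0 passing. Of all genes 8.39% were lower and 30.3% higher without overlap, and of kept probes with a gene symbol 19.5% and 21.5%.

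**Figure D3:**
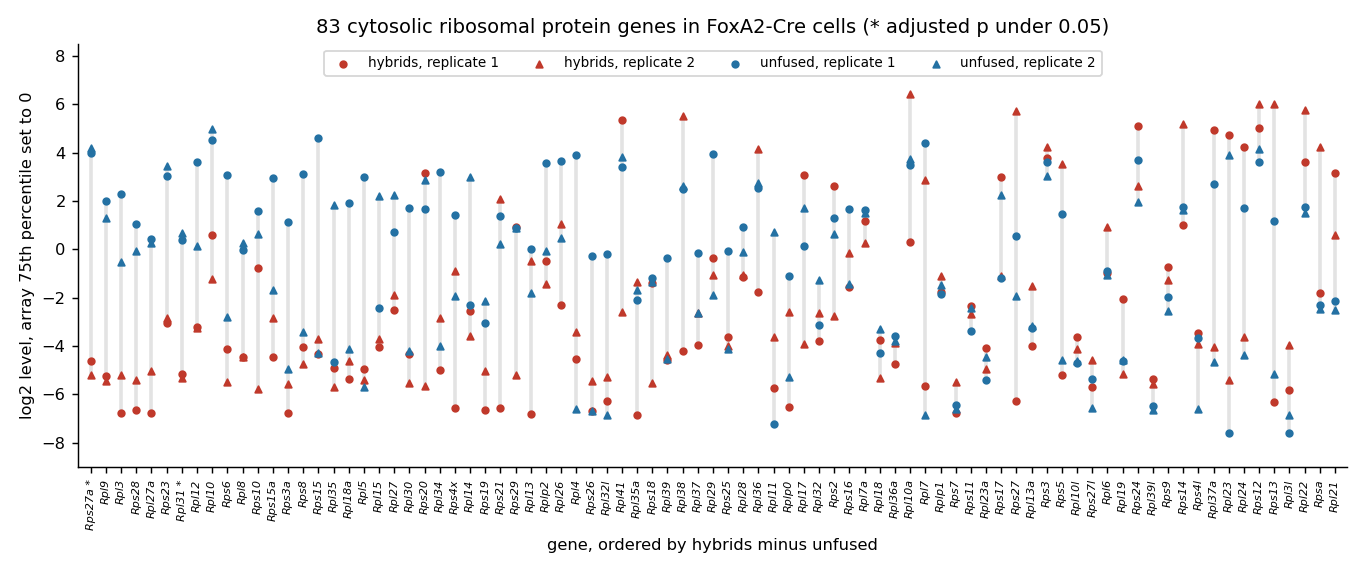
Log2 level (array 75th percentile at 0) of 83 cytosolic ribosomal protein genes, 1 probe each, on the 2 hybrid (red) and 2 unfused (blue) FoxA2-Cre arrays, ordered by the difference. Genes at the left have both hybrids below both unfused arrays, the 2 marked with an asterisk passed, and genes at the right such as Rpl21 have hybrids above.

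Pfn1 and Itga6 were also called lower. Pfn1, which encodes the actin monomer-binding protein profilin, lay at -5.58 and -5.02 in hybrids and 2.71 and 3.08 in unfused cells. It was at least 145-fold lower (-8.20 ± 0.89, SE, adjusted p 0.0102), and the 6 other arrays lay between, at -2.41 to -0.73. The unfused FoxA2-Cre pools were thus also above every array of the other recipients, and the hybrids below them. Itga6, the alpha-6 subunit of laminin-binding integrins, was at -5.59 and -5.63 in hybrids and 2.35 and 2.79 in unfused cells, a fall of at least 115-fold (adjusted p 0.00469). Its second probe was bright on all 4 arrays, at 4.46 and 4.86 in hybrids and 4.04 and 3.63 in unfused cells (0.82, adjusted p 0.784), so the 2 probes of Itga6 disagree. Of 26 actin and actin-turnover genes Pfn1 alone passed. Arpc4, a subunit of the Arp2/3 complex, differed by -2.72 ± 0.51 (SE, adjusted p 0.0846), and 5 genes (19.2%) were lower and 5 higher without overlap, where 8.39% and 30.3% of all genes were. Among kept probes with a gene symbol these shares were 19.5% and 21.5%.

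Oaz1, Ddx3x and Sumo2 were called lower, while 0 of 34 proteasome genes and 0 of 34 splicing genes passed in limma. Oaz1, the antizyme that marks ornithine decarboxylase for degradation, was well above background on all 4 arrays, at -3.67 and -2.81 in hybrids and 2.87 and 2.14 in unfused cells on the chromosome 17 probe (-5.74 ± 0.67, SE, adjusted p 0.0142). The chromosome 10 probe gave nearly the same levels, as its shared bases allow (-5.66 ± 0.73, SE, adjusted p 0.0210). Ddx3x, an RNA helicase of translation initiation, was at -7.00 and -5.54 in hybrids and 0.75 and 1.16 in unfused cells (-7.23 ± 0.64, SE, adjusted p 0.00520). A neighbouring Ddx3x probe was bright on unfused replicate 2 only and differed by -2.58 (adjusted p 0.873). Sumo2, a ubiquitin-like modifier, fell by 7.02 at 1 probe (adjusted p 0.0284), while its 3 other kept probes differed by -0.13 to -0.07.

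Genes of other functions called lower were spread over many roles. Cox4i1, a subunit of cytochrome c oxidase, was at -3.62 and -4.14 in hybrids and 2.69 and 2.88 in unfused cells (-6.67 ± 0.98, SE, adjusted p 0.0351). The 6 other arrays ran from -5.16 to -2.51, so the hybrid levels lay within their range and the unfused levels above it. Of 74 nuclear respiratory chain genes Cox4i1 was the 1 to pass, and 13 of these (17.6%) were lower and 15 (20.3%) higher without overlap, beside the 8.39% and 30.3% of all genes. Kept probes with a gene symbol had shares of 19.5% and 21.5%. The difference was -5.56 for the clock gene Per1, -4.32 for the histone gene H4c14, -4.43 for Lamtor4, a subunit of the lysosomal Ragulator complex, and -5.27 for the endoplasmic calcium pump gene Atp2a3. The phosphoinositide phosphatase gene Synj1 differed by -5.36 and Trim30a, a regulator of innate signalling, by -5.51. A pair of odorant receptor genes also passed, Olfr1204 (-7.57) and Olfr476 (-4.09), and so did the immunoglobulin heavy chain gene Igh-VJ558 (-7.59). Plekhj1, Spin1, Shisa5, Nlrp9c, Ripor1, Zfp975, Apol7b and Orly complete the 27, between -7.62 for Orly and -3.65 for Nlrp9c. The members just inside the threshold were Apol7b, Igh-VJ558 and Pglyrp1 (adjusted p 0.0496 each), and those just outside were Lamp3 (-5.47, 0.0503), Dennd5a (-7.95, 0.0532) and Tsc22d3 (-6.98, 0.0532).

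The named genes that rose in hybrids were Lman2, Commd2 and Vmn1r148. Lman2, a lectin that carries glycoproteins between the endoplasmic reticulum and the Golgi, was at 4.17 and 5.11 in hybrids and -7.54 and -7.17 in unfused cells, at least 1128-fold higher (11.99 ± 1.80, SE, adjusted p 0.0387). Commd2, of the COMM domain family, was at 1.44 and 3.93 against -8.21 and -6.51, at least 292-fold higher (adjusted p 0.0207). The vomeronasal receptor gene Vmn1r148 was at 4.58 and 4.60 against -5.79 and -5.19, at least 995-fold higher (adjusted p 0.0251). In all 3 the unfused arrays were not well above background, and the 6 other arrays ran from -9.69 to -2.51. Lman2 has a second probe, which was not kept and lay at -6.73 and -5.33 in hybrids and -5.41 and -3.55 in unfused cells. Of 39 kept vomeronasal 1 receptor probes, Vmn1r148 was the 1 called.

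Of the 8 other higher calls, 3 were the T cell receptor alpha segments printed above. Variable 13-2 was at 4.25 and 4.03 in hybrids and -1.68 and -1.44 in unfused cells (5.70 ± 0.65, SE, adjusted p 0.0128). Variable 13D-4 was at 5.01 and 3.83 against -3.51 and -2.72 (7.53, adjusted p 0.0244), and variable 13-1 at 2.92 and 3.40 against -4.71 and -6.92 (8.98, adjusted p 0.0351). The array has 54 probes of this segment family. Of these, 24 were kept, 3 passed, and the median difference of the kept ones was 0.03, from -3.39 to 8.98. None of the 9 kept beta chain segments passed (0 called, 2 at an unadjusted p under 0.05, limma). The T cell marker Cd3e was at -2.14 and -1.28 in hybrids and -2.50 and -3.22 in unfused cells (1.15, adjusted p 0.739), and Cd4 differed by 0.01.

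Of the called probes, 62 of the lower and 8 of the higher carried no gene symbol. Of 5588 kept lincRNA probes 13 passed as lower and 2 as higher. Probes without any description numbered 1672, and 34 of them passed as lower and 1 as higher, 2.09% in all. All 3 kept probes of the lincRNA interval chrX:121675099-121675731 were called lower, with differences of -8.84 to -7.05. Of the 4 kept probes of chr1:85117750-85129200, 2 were called lower, at -8.34 and -8.28.

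Foxa2, the gene that defines the recipients' Cre line, was at -6.77 and -3.49 in hybrids and -3.98 and -3.77 in unfused cells. It was well above background on 0 of 2 hybrid and 2 of 2 unfused arrays, the groups overlapped, and the difference of -1.26 ± 1.56 (SE, adjusted p 0.905) did not pass. The other Foxa2 probe did not rise above background on these arrays. On the first probe, hybrid replicate 2 lay above both unfused levels without being marked as well above background. On that array 19.8% of spots were so marked, against 49.2% and 34.8% on the unfused arrays. These values do not show whether hybrids held less Foxa2 transcript than unfused cells. Th, which encodes the rate-limiting enzyme of dopamine synthesis, was measured on all 4 arrays, at -0.80 and -2.05 in hybrids and -0.87 and -0.89 in unfused cells (-0.54 ± 0.63, SE, adjusted p 0.895). Of 18 genes of the midbrain floor plate and dopaminergic neurons, 8 were kept and 0 passed in limma. Without overlap 8 of the 18 (44.4%) were higher and 0 lower, against 30.3% and 8.39% of all genes, and the median was 0.42, below the 0.54 of all genes. These values include genes whose probe was not kept. Kept probes with a gene symbol gave 21.5% and 19.5%, and a median of -0.0012. Lmx1b, a partner of Foxa2 in that lineage, differed by 1.00 and Otx2 by -1.78 (adjusted p 0.828 and 0.813). Of the astrocyte marker Gfap no probe was kept, and Aqp4, another astrocyte gene, differed by 0.10 (adjusted p 0.987). Wnt1, a signalling ligand of the midbrain, was at -0.16 and 0.62 in hybrids and 0.16 and -0.15 in unfused cells (0.23 ± 0.72, SE, adjusted p 0.972). Of 45 Wnt pathway genes 18 were kept and 0 passed in limma, with 12 (26.7%) higher and 3 (6.67%) lower without overlap. All genes gave 30.3% and 8.39%, and kept probes with a gene symbol 21.5% and 19.5%. Shares over a list or all genes include probes well above background on none of the 4 arrays, here those of Fzd4, Fzd10 and Wnt3 among others. Without detection, a gap between the groups does not show a difference in transcript.

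Of 14 genes shared by white blood cells, 6 were kept and 0 passed in limma. Ptprc, the pan-leukocyte antigen CD45, was at -3.30 and -2.76 in hybrids and -2.87 and -2.98 in unfused cells (-0.10 ± 0.62, SE, adjusted p 0.985). Kit, the stem cell factor receptor, was well above background on unfused replicate 1 alone. Among 17 stem and progenitor genes Tal1 differed by 1.28 and Flt3 by -0.24, and 0 passed. Of 16 microglia genes 0 passed, and 7 (43.8%) were higher and 0 lower without overlap, beside 30.3% and 8.39% of all genes. Kept probes with a gene symbol had shares of 21.5% and 19.5%. The median of the microglia genes was 0.54, as over all genes, with probes that were not kept included in both. Over kept probes with a gene symbol the median was -0.0012. Cx3cr1, the fractalkine receptor of microglia, was at 4.60 and 6.26 in hybrids and 3.17 and 2.37 in unfused cells (2.66 ± 1.20, SE, adjusted p 0.648). The Cx3cr1 probe has a run of 20 bases in common with another gene's probe, so its signal may not be that gene's alone. On the 6 other arrays it ran from -2.35 to -0.17. Trem2, a lipid-sensing myeloid receptor, was at 4.56 and 6.23 against -4.42 and 3.15, with the unfused replicates far apart.

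Neutrophil genes gave large gaps that did not pass. Mpo, the granule peroxidase, was at -6.81 and -5.69 in hybrids and 1.73 and 1.50 in unfused cells, at least 59.7-fold lower (-7.87 ± 1.70, SE, adjusted p 0.134). S100a9, a calcium-binding protein of neutrophils, was at -6.82 and -3.64 against 3.13 and 3.56, at least 198-fold lower (adjusted p 0.157). The antimicrobial peptide gene Camp differed by -4.43 (0.102) and Lcn2 by -3.80 (0.196). Hybrids were also lower on average in the R26Y and GFAP-Cre recipients. There the differences were -4.09 for Mpo, -3.13 for S100a9, -1.33 for Camp and -0.88 for Lcn2. The FoxA2-Cre gap was the larger in each, but the interaction term described below passed for none of these genes. Pglyrp1, a granule protein outside the list, was called lower, at -4.45 and -4.56 against 3.99 and 0.81 (adjusted p 0.0496). Of the 17 listed genes 0 passed in limma, and 4 (23.5%) were lower and 2 higher without overlap, beside 8.39% and 30.3% of all genes. Kept probes with a gene symbol had shares of 19.5% and 21.5%. Well above background on hybrid replicates 1 and 2 and unfused replicates 1 and 2 were 5, 3, 11 and 9 of the 17. The shares of all spots were 34.6%, 19.8%, 49.2% and 34.8%. The part of such cells in the other results was not tested, and fewer cells of a type and less RNA per cell cannot be told apart here. Of 10 antigen presentation genes 0 passed in limma. H2-Eb1 (-5.79, adjusted p 0.0899) and Cd74 (-5.78, adjusted p 0.136) were the 2 lower without overlap. Their hybrid levels, -4.96 and -4.25 for H2-Eb1 and -3.55 and -2.78 for Cd74, lay within the range of the 6 other arrays. That range was -5.59 to -3.61 for H2-Eb1 and -3.57 to -0.71 for Cd74. The 5 higher without overlap were H2-Aa (2.45), H2-Ab1 (1.64), B2m (1.18), Ciita (0.88) and Tap2 (0.70). Probes of H2-Aa, H2-Ab1 and B2m were not kept. Of all genes 8.39% were lower and 30.3% higher without overlap, and of kept probes with a gene symbol 19.5% and 21.5%.

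Lysosomal and phagocytic genes lay toward the other side. Of 25 genes 12 (48.0%) were higher and 0 lower without overlap, with a median of 1.09, and 0 passed in limma. Of all genes 30.3% were higher and 8.39% lower without overlap, and of kept probes with a gene symbol 21.5% and 19.5%. The list and all genes include probes that were not kept. The list's median lay 0.55 above that of all genes, and 0.08 above it with normexp background correction. The cysteine protease gene Ctsb was at 5.17 and 7.54 in hybrids and -5.77 and 4.27 in unfused cells (7.10 ± 3.56, SE, adjusted p 0.70). The lysosomal membrane gene Cd63 was at 5.34 and 5.96 against 2.01 and 1.84 (3.72 ± 1.98, SE, adjusted p 0.716). Ctss, another cathepsin gene, was at 4.20 and 4.75 against 3.70 and -7.04, and Lamp1, of the lysosomal membrane, at 3.29 and 5.17 against 2.95 and -5.82. In Ctsb, Ctss and Lamp1 the gap rests on 1 unfused array at background, with the other near the hybrids.

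Of the 34 lists, genes passed at the listed probe in 4, the cytosolic ribosome (2 lower), actin (1 lower), the respiratory chain (1 lower) and the odorant and vomeronasal receptors, where 1 of 1341 passed as higher and 2 as lower.

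**Figure D4:**
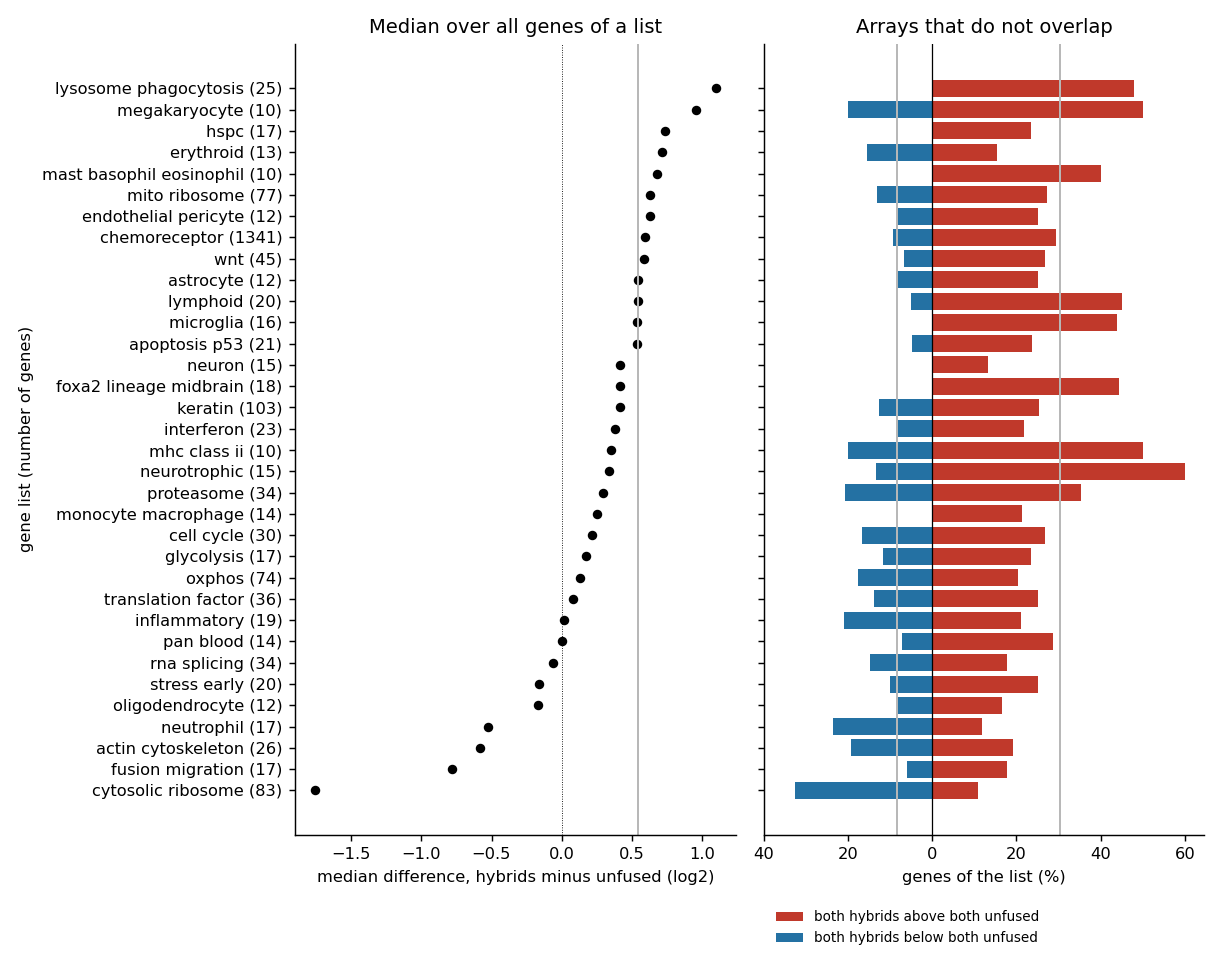
For each of the 34 gene lists, the median hybrid minus unfused difference over its genes (left, log2, grey line the median of all genes, 0.54) and the percentage of its genes whose 2 hybrid arrays lie both above (red) or both below (blue) the 2 unfused arrays (right, grey lines all genes, 30.3% and 8.39%). Cytosolic ribosomal genes lie lowest, at -1.76, and lysosomal genes highest, at 1.09. Medians and percentages include genes whose probe was not kept.

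The hybrid minus unfused difference in FoxA2-Cre recipients was then set against the mean of that difference in R26Y and GFAP-Cre recipients, as an interaction term over all 10 arrays. It passed at 66 of the 103 called probes, 7 higher (0.0394% of kept probes) and 59 lower (0.332%). In the other recipients these 103 probes differed between hybrids and unfused cells by -1.37 to 0.67, with a median of 0.02, and 99 were well above background on all 6 of those arrays. The calls use a spread shared with those arrays, which disfavours probes whose replicates differ there, so the narrow range partly follows from the selection. The interaction was -8.79 ± 0.59 (SE, adjusted p 0.00634) for Rps27a, whose difference in the other recipients was -0.22. It was -7.96 for Pfn1, -8.39 for Itga6, -7.30 for Ddx3x and 11.42 for Commd2 (adjusted p 0.0242, 0.00810, 0.00969 and 0.0242). Cox4i1 (adjusted p 0.0853) and Lman2 (0.0547) did not pass. Recipient set, slide and scan coincide, so they cannot be told apart in this term, and R26Y and GFAP-Cre hybrids share their unfused arrays. The term passed at 0 probes without either unfused replicate (1079 and 1027 at an unadjusted p under 0.05), and at 0 with slide column as a term (615 unadjusted).

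Probes of unplaced Y chromosome sequence, a set chosen after their values were seen, were lower in hybrids at 105 of 125. In 54 (43.2%) both hybrid arrays lay below both unfused arrays, against 8.25% of all probes, and in 3 above them, against 29.4%. Among the 110 kept probes of the set these shares were 48.2% and 1.82%, against 19.7% and 20.2% of all kept probes. Of the set, 15 were called lower. Their median level was 0.35 and -3.58 on the hybrid arrays, 2.46 and 2.68 on the unfused arrays and 0.95 to 2.07 on the others. Hybrid replicate 1 lay near the other recipients' arrays and hybrid replicate 2 well below all. Of the probes, 98, 54, 124 and 110 were well above background on hybrid 1 and 2 and unfused 1 and 2. The shares of all spots on these arrays were 34.6%, 19.8%, 49.2% and 34.8%. Many of the unplaced Y probes are near copies of each other, so they are not independent. Orly, a noncoding Y gene in this sequence, was at -3.96 and -3.93 in hybrids and 3.80 and 3.55 in unfused cells (adjusted p 0.00341), while its other probe differed by -3.76 (0.653). Probes of the single-copy Y genes Ddx3y, Uty, Zfy1 and Kdm5d were at background on all 4 arrays, and those of Eif2s3y and Usp9y were well above it on unfused replicate 1 alone.

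**Figure D5:**
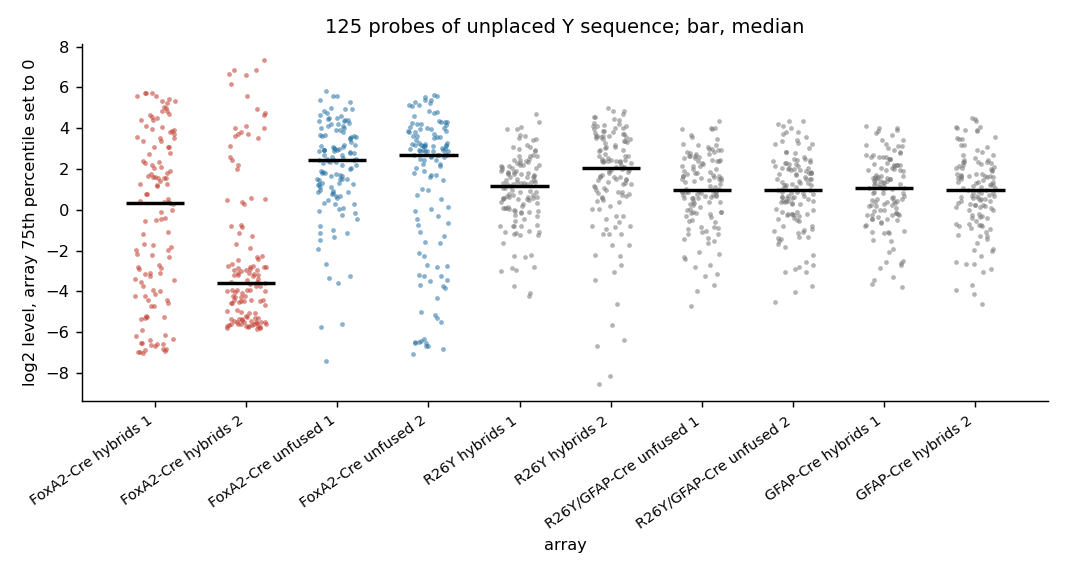
Log2 level (array 75th percentile at 0) of 125 probes of unplaced Y sequence on each of the 10 arrays, with the median as a bar. The medians are 0.35 and -3.58 for FoxA2-Cre hybrids, 2.46 and 2.68 for FoxA2-Cre unfused cells and 0.95 to 2.07 for the others.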

How the data were processed

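Cy3-labelled cDNA from amplified RNA was hybridised to 1-colour arrays of 60-base probes. Signal intensity per spot was background-corrected by the authors with Feature Extraction 10.7.3.1, per the file headers, as were the marks for spots well above background. The authors' deposited log2 matrix served as an alternative. Within each array it ranked probes as mean signal minus background does. Its column medians were 6.26 on the FoxA2-Cre arrays and 7.39 on the others, so the slides appear scaled apart, and its normalization is not given in the sources used here. Intensities of a probe's spots were averaged without control and non-uniform spots, put on log2 and reduced by the array's 75th percentile over the 9248 probes well above background on all 10 arrays. limma 3.58.1 in R 4.3.3 fitted the 5 group means with array weights by slide (0.501 for the FoxA2-Cre slide, 1.59 for the other), 5 residual degrees of freedom and Benjamini-Hochberg adjustment over 17777 probes. The code was tested on simulated data. Replicates are pools of 2 mice; their number limits the precision. Replicate numbers were not taken to pair samples, since the deviations of same-numbered samples correlated at -0.03.

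Gene names come from the scanner files, updated through RefSeq accessions for 27428 of 55681 probes, 2788 of which changed, while 28253 had no match. Positions are on mm9, per the file headers. Named genes were those past the threshold without overlap, by size of difference or bound, plus per list the members of smallest p and genes always given; the other called genes were added. A gene's level in a list is its brightest probe. The members, lists and rules were chosen with earlier results of these data known. Alternatives covered the variance model, scaling, background, filters, shared sequence, replicates and slide position.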

Additional observations from a re-analysis of the deposited data

Results flagged for a closer look

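The hybrid minus unfused difference in FoxA2-Cre recipients departed from its mean in the other recipients by the interaction term at 59 probes on the lower and 7 on the higher side, and the named genes among them are given here as log2 values of that term. Among ribosomal protein genes the values were -8.79 and -7.82 for the Rps27a probes, -8.21 and -8.59 for the overlapping Rpl10 probes and -5.96 for Rpl31. Pfn1 gave -7.96, Itga6 -8.39, Ddx3x -7.30 and the Oaz1 probes -5.96 and -5.90. The values were -5.89 for Spin1, -5.16 for Per1, -4.16 for H4c14 and -7.86 for Orly. On the higher side Commd2 gave 11.42 and Vmn1r148 10.78. Without unfused replicate 1 or 2 limma passed 0 probes on this term, with 1079 and 1027 below 0.05 before adjustment.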

How the results depend on the processing

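The 30 called genes kept their sign under every alternative in which their probe was tested, and 0 values reversed. For most alternatives this was fixed in advance. Both hybrid levels of each gene lay on one side of both unfused levels, so leaving out 1 array could not change the sign. Changes of weights, variance model or filter leave the difference itself as it is. Size and passing were less stable than sign. Over the alternatives the smallest difference was -0.61 for Ripor1, -1.71 for Trim30a and -1.83 for Synj1, and -6.23 for Rps27a. Several genes, among them Apol7b, Shisa5 and Lamtor4, fell short of the threshold in most alternatives, and Rps27a in few. The filter for all 4 arrays tests only 22 of the 103 called probes and the set without shared sequence 58. The 103 calls became 373 with equal variance on both slides, 173 with array weights by group, 159 with the authors' log2 matrix, 56 with normexp, 19 among probes measured on all 4 arrays, 45 without probes sharing 20 bases, 68 with slide row, and 0 with slide column (1438 at an unadjusted p under 0.05) or with the 4 FoxA2-Cre arrays alone (1400). Leaving out 1 FoxA2-Cre replicate gave 0 to 179, where the lone array left is assumed to vary like the rest. The 66 interaction calls became 125 with equal variance, 118 with weights by group, 28 with normexp, 13 among probes on all 4 arrays, 16 with no filter, 32 without shared probes, 7 with slide row and 0 with slide column (615), and 0 to 110 without 1 replicate. The causes were not tested, except that the strict filter and the removal of shared probes test fewer probes.

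With the replicate number as a block, 81 probes were called in the FoxA2-Cre comparison (7 higher, 74 lower) and 42 in the interaction.

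Scaling moved the median difference of all genes from 0.54 to 0.77 with normexp, 0.16 with quantile normalization, 0.03 with the authors' matrix and 1.07 with a floor. Relative to it, the ribosomal list lay at -2.30 (-3.01 to -1.07 over the alternatives), the lysosomal list at 0.55 (0.08 to 0.89) and the microglia list at -0.01 (-0.20 to 0.22). The neutrophil list lay at -1.07, at -0.27 with the authors' matrix, -0.32 with normexp and -0.42 without unfused replicate 1. Dim hybrid arrays, with 19.8% to 34.6% of spots well above background, limit what could be measured as lower.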
